A study of Mus musculus with 4 samples.

Results

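The genes described here are those that differed at least 2-fold, in the same direction, between both tumour cocultures and control bone marrow-derived dendritic cells (BMDC). They were chosen from the deposited signals: values were raised to a floor of 44.3 where they lay under it (the median signal over all 4 arrays, control probe sets left out), and the ratio to the control had to reach 2-fold on the live and on the irradiated coculture array. Of 18193 genes measured, 432 (2.37%) were higher and 274 (1.51%) were lower on both cocultures, 706 members in all. Since these ratios chose the members, they are given as a description with no test.

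BMDC came from male C57BL/6 mice aged 6 to 8 weeks and had been grown for 7 days in medium with 500 U/ml GM-CSF. Control BMDC were kept without tumour cells. The live coculture held 1 cell of 1D8, a line from mouse ovarian surface epithelium, for every 5 BMDC, and the irradiated coculture held 1D8 cells that had received 50 Gy. The conditioned medium sample, which the rule did not use beyond the floor, received 25% (v/v) 1D8 supernatant. Every sample was sorted on CD80, a costimulatory surface protein, so the control cells were sorted too. There was 1 biological sample and 1 array per condition, so no value has an error, no difference can be set against a spread between replicates, and "higher" and "lower" describe these arrays only. Both ratios of a gene use the same control array, so a deviation of that array would appear in both.

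Dendritic cells take up antigen, present it on MHC class II and, once mature, move to lymph nodes under the chemokine receptor Ccr7. In a tumour they can instead take on programs shared with inflammatory macrophages: release of neutrophil and monocyte chemokines, the oxygen-sensing response of hypoxia-inducible factor (HIF), and enzymes such as arginase. HIF is held down by prolyl hydroxylases when oxygen is plentiful, and it activates genes through short DNA elements that contain the letters ACGTG. Many chemokine genes are switched on by NF-kappaB, which binds sites of the form found in the promoters shown here.

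The labelled cells were checked against fixed markers. All 13 dendritic cell markers exceeded the floor on all 4 arrays, among them Itgax, the CD11c integrin gene, with signals of 2534 in the control, 1921 and 1388 in the live and irradiated cocultures and 2394 in conditioned medium. Flt3 and Zbtb46, which mark conventional dendritic cells, were close to the floor everywhere, at 45.5 to 73.2 and 56.1 to 63.1. The 8 macrophage markers were above the floor on every array as well, so the cultures carried genes of both cell types. Of 15 epithelial or mesothelial markers, 3 exceeded the floor in the control, 11 in each coculture and 5 in conditioned medium, and their summed signal was 518.4, 3014, 3655 and 856.3 in that order. No array of 1D8 cells alone was analysed here, and the part of tumour cell RNA in the other results was not tested. In a bulk sample such as this, fewer cells of a type and less RNA per cell cannot be told apart. For Actb the 3' probe set read 1.30 times the 5' one in the control against 1.14 and 1.12 times in the cocultures, a sign of RNA quality whose part was not tested either.

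**Figure D1:**
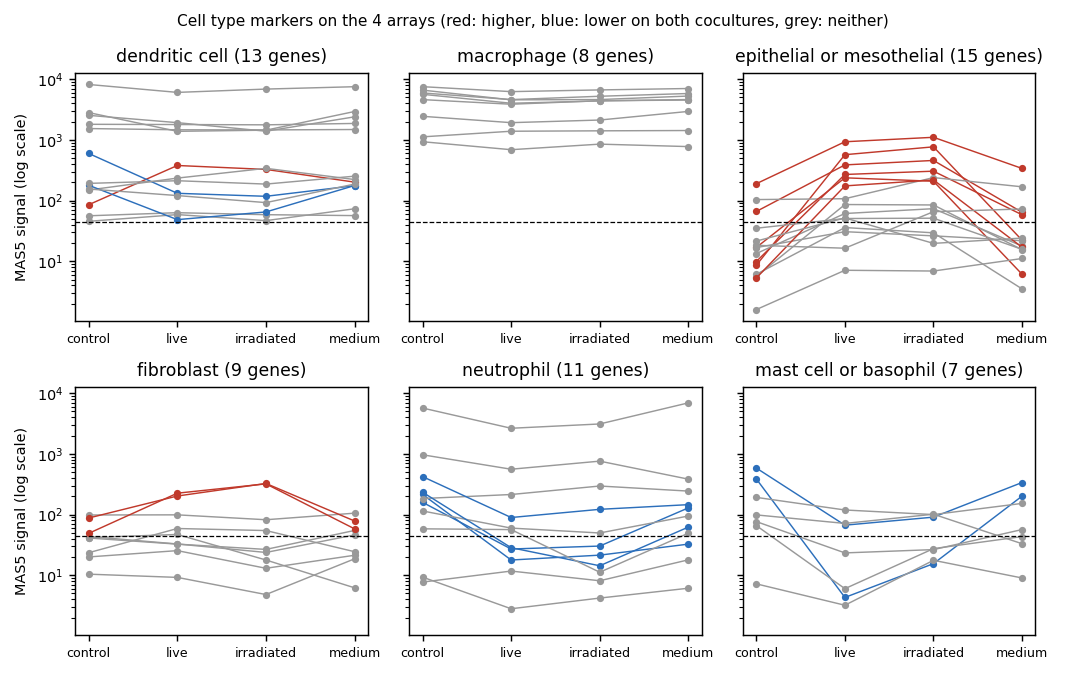
Signals of fixed cell type markers on the 4 arrays, on a log axis, 1 line per gene, with the floor of 44.3 dashed. Red and blue genes are members, higher or lower on both cocultures. Dendritic cell and macrophage markers stay above the floor on every array, while 6 epithelial or mesothelial markers are higher and 4 neutrophil markers lower in both cocultures.

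The 432 higher members are 70.6% of the 612 genes higher in the live coculture (3.36% of all genes) and 68.4% of the 632 higher in the irradiated coculture (3.47%). The 274 lower members are 67.5% of the 406 genes lower in the live coculture (2.23%) and 67.0% of the 409 lower in the irradiated coculture (2.25%). Because both comparisons use the same control, these shares are what the rule itself counts and not a measure of agreement. The ratio between the coculture arrays does not involve the control. It lay within 1.5-fold for 393 of the 432 higher members (91.0%) and for 214 of the 222 lower members with both cocultures above the floor (96.4%). The same was so for 94.7% of the 9847 genes above the floor on all 4 arrays, and the rule itself favours members whose cocultures are close, so nothing particular to the members is read from these shares. Over those 9847 genes the log2 ratio of irradiated to live coculture had an SD of 0.30, against 0.60 and 0.61 for each coculture against the control. Only 1 gene, Rasgef1b, a guanine nucleotide exchange factor, was at least 2-fold from the control in opposite directions (0.0055% of genes).

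**Figure D2:**
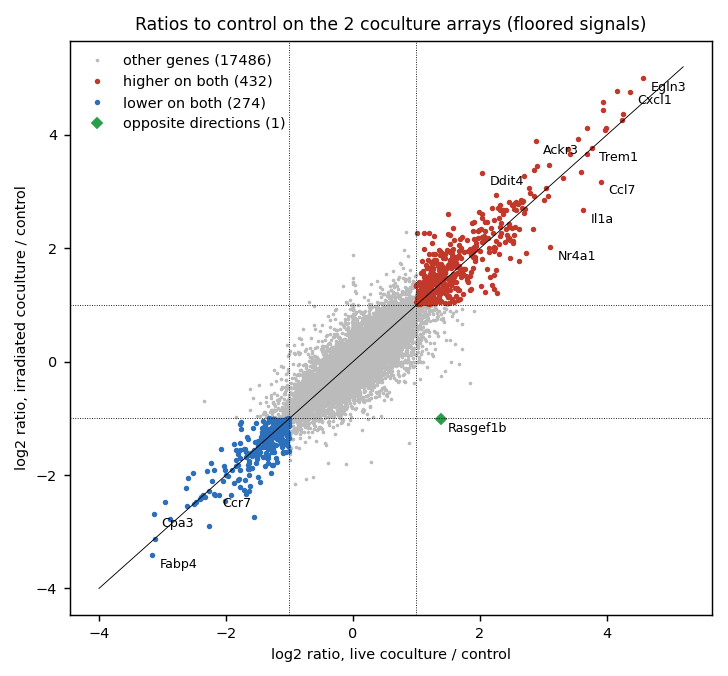
Log2 ratio to control in the live coculture (x axis) and in the irradiated coculture (y axis), 1 point per gene, with dotted lines at 2-fold and a solid line of equal ratios. The 432 higher and 274 lower members lie along the line of equal ratios, and Rasgef1b is the gene in the opposite corner.

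Among the members, 154 were at least 3-fold higher, 93 at least 4-fold higher and 20 at least 8-fold higher on both arrays, while 61 were at least 3-fold lower, 24 at least 4-fold lower and 2 at least 8-fold lower. In 88 of the higher members the control signal was at or under the floor, and in 52 of the lower members at least 1 coculture signal was, so their ratios are lower bounds, written "at least". The members just inside the threshold were Adgrg3, Ajuba and Bag2 on the higher side and Slc43a2, Qrsl1 and Rab19 on the lower side. Bag2 had signals of 63.3 in the control and 126.6 and 130.9 in the cocultures. Just outside lay Pip5k1b, Got1 and Cfap61, and on the lower side Smim4, Lrwd1 and Hpse. Got1 had 416.8 in the control and 847.1 and 832.6 in the cocultures, so it missed the rule by the irradiated coculture alone.

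Chemokines that call neutrophils stood near the top of the ranking, ordered by the smaller of a gene's 2 ratios. The control array read 62.7 for Cxcl1, the live and irradiated cocultures 1293 and 1701, and conditioned medium 576.4. Cxcl2 had 423.9, 6714, 7402 and 1782 in the same order, and Cxcl3 had 191.6, 2934, 4174 and 1385. In each of the 3 genes the cocultures were highest, the control lowest and conditioned medium between them. These are 3 of the 7 genes of their list (42.9% against 2.37% of all genes). Of the others, the platelet basic protein gene Ppbp had 472.4, 843.7, 2304 and 1735, so it missed 2-fold in the live coculture, Pf4 ranged from 5959 to 7305, and Cxcl5 and Cxcl15 were under the floor on every array.

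The promoters of these 3 chemokine genes are shown because they carry the same element. Sequences are from RefSeq on GRCm38.p6, read 5' to 3' on the gene's strand, and cover the 120 bases before the annotated transcript start, with matches to the NF-kappaB consensus in capitals. The windows are chr5:90891125-90891244 for Cxcl1, chr5:90903779-90903898 for Cxcl2 and chr5:90785981-90786100 for Cxcl3, all on the plus strand.
Cxcl1: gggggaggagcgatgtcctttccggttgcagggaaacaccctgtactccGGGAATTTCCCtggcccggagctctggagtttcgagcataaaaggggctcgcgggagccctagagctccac
Cxcl2: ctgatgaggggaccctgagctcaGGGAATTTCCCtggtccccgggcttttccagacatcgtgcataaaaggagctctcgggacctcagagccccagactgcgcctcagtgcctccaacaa
Cxcl3: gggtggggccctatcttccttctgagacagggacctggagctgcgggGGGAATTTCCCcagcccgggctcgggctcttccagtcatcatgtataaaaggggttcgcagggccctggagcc
The capitals are the same 11 letters in all 3 genes, GGGAATTTCCC, the longest stretch with a match to the consensus that the upstream bases share, and they hold overlapping matches on opposite strands. The block begins 71, 97 and 73 bases before the start of Cxcl1, Cxcl2 and Cxcl3. Among the 14452 measured genes with an upstream sequence of 250 bases, 9 (0.0623%) held these 11 letters, and Cxcl1, Cxcl2 and Cxcl3 were 3 of the 9. The block was taken from these 3 promoters, so their place among the 9 was fixed in advance. The chemokine genes are also paralogs that lie near each other, so the shared letters are not separate observations. The looser NF-kappaB consensus was found in 5.34% of all these genes, in 27 of 322 higher members with a sequence (8.39%) and in 8 of 230 lower members (3.48%). The AP-1 letters TGANTCA were in 6.70% of all genes, 8.70% of higher members and 7.39% of lower members. Every member is above the floor on the control or a coculture array. Over the 9865 such genes with a sequence, the shares were 5.46% for the NF-kappaB consensus and 5.88% for the AP-1 letters.

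Other chemokines were divided. Of 27 measured, 5 were higher on both cocultures (18.5% against 2.37% of all genes) and 1 lower (3.7% against 1.51%). Ccl2, which attracts monocytes, had 895.8 in the control, 7241 and 6480 in the live and irradiated cocultures and 1007 in conditioned medium. Its neighbour Ccl7, another monocyte chemokine, had 133.0, 1995, 1199 and 197.9. For both genes conditioned medium stood close to the control and far from the cocultures. Ccl24, an eosinophil chemokine, was under the floor at 21.4 in the control and 36.1 in conditioned medium and reached 220.1 and 302.0 in the cocultures. The lower gene was Ccl22, a T cell chemokine of mature dendritic cells, with 1417, 229.1, 300.8 and 355.6.

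Cytokines of innate immunity had 6 of 24 measured genes higher (25% against 2.37% of all genes) and 1 lower (4.17% against 1.51%). Il1b had signals of 185.2, 1990, 2349 and 875.1 in control, live coculture, irradiated coculture and conditioned medium. Il1a, its neighbour in the genome and the other interleukin 1 agonist, had 70.6, 870.1, 448.1 and 187.2, and differed more between the cocultures than Il1b. Osm, oncostatin M of the interleukin 6 family, had 259.0, 1405, 1158 and 300.9. The adjacent gene Lif, leukaemia inhibitory factor, was under the floor in the control and in conditioned medium and had 155.5 and 117.5 in the cocultures, so it was at least 3.51-fold and 2.65-fold higher. Il6 was at least 8.25-fold and 8.33-fold higher, and Il1f9, the interleukin 36 gamma gene, 2.47-fold and 2.69-fold. The lower gene was Il12b, the p40 subunit of interleukins 12 and 23, with 99.6 in the control, 43.7 and 41.0 in the cocultures, both under the floor, and 119.8 in conditioned medium.

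Genes induced by hypoxia formed the list with the largest share of members, 18 of 31 measured (58.1%) against 2.37% of all genes, or 3.55% of the 12178 genes above the floor on the control or a coculture array. None was lower. The median log2 ratio of the list was 1.45 and 1.69 in the live and irradiated cocultures and 0.45 in conditioned medium, where the median over all genes was 0.00 on each array. Egln3, the prolyl hydroxylase that ranked highest of all members, had signals of 39.8, 1055, 1412 and 162.8 in control, live coculture, irradiated coculture and conditioned medium. Bnip3, a receptor for removal of mitochondria, had 244.7, 2863, 3719 and 737.5. Hilpda, a lipid droplet protein, had 142.2, 2225, 2404 and 190.7, with conditioned medium near the control. The collagen prolyl hydroxylase gene P4ha1 had 217.4, 1077, 1121 and 432.1, and the mitochondrial adenylate kinase gene Ak4 had 54.1, 565.0, 727.3 and 97.2. Other members were the oxidase Ero1a, Ankrd37, Fam162a, Ndrg1, P4ha2, Vegfa, Selenbp1, Plod2, Mxi1 and Egln1.

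Glucose uptake and breakdown was represented by 6 of 23 measured genes, all higher (26.1% against 2.37% of all genes). Slc2a1, the glucose transporter GLUT1, had signals of 591.5 in the control, 2214 and 2659 in the cocultures and 568.5 in conditioned medium. Slc16a3, the lactate exporter, had 333.4, 1828, 1805 and 513.3. Pdk1, the kinase that keeps pyruvate out of mitochondria, had 314.7, 1115, 1218 and 551.3. Each of these genes was above 3-fold in both cocultures and under 2-fold in conditioned medium. The enzymes Hk2, Tpi1 and Aldoc were nearer the threshold, with Tpi1 2.04-fold and 2.32-fold higher. None of the 28 measured genes on the oxidative phosphorylation list was a member in either direction. The median log2 ratio of that list was -0.43 in the live and -0.44 in the irradiated coculture. The list does not hold every such gene. The respiratory chain and ATP synthase subunit genes Ndufb2, Ndufb7 and Atp5k, which are not on it, were lower members.

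The promoters of the hypoxia genes shared the HIF core letters ACGTG, searched on both strands in the 250 bases before each start. They were present in 15 of the 16 higher hypoxia genes with a sequence, in 4 of the 11 listed hypoxia genes that were not higher, and in 22.4% of all 14452 genes. The list was drawn from known targets of HIF, so a high share is partly built in. The median G+C content of these upstream bases was 67.0% in the 16 genes against 57.6% over all genes and 59.4% over genes above the floor. Its part in the difference was not tested. Over all higher members the share with ACGTG was 26.7%, and over lower members 22.6%, beside 24.7% of genes above the floor on the control or a coculture array. The letters CACGTG, an E-box that contains ACGTG, were found in 2 of the 16 and in 8.73% of all genes. They were in 9.80% of genes above the floor, 8.70% of higher members and 13.9% of lower members. A few windows are shown to place the matches, with the core letters in capitals, again 120 bases each on GRCm38.p6. They are chr12:54204005-54204124 for Egln3, chr7:138909507-138909626 for Bnip3 and chr10:59951901-59952020 for Ddit4, all on the minus strand, and chr10:59323176-59323295 on the plus strand for P4ha1.
Egln3: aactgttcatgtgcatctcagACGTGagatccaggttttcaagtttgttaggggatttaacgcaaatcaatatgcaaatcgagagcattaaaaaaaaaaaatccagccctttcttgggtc
Bnip3: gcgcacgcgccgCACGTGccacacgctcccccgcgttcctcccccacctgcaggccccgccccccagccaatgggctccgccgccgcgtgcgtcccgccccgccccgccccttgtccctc
Ddit4: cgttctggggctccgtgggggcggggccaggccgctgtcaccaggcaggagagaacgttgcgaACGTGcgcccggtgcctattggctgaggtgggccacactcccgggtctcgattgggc
P4ha1: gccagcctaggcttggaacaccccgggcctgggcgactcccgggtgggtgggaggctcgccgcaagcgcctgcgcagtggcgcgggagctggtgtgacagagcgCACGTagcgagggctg
The windows of Bnip3 and P4ha1 end at the base before the start, and those of Egln3 and Ddit4 run from 250 to 131 bases before it. The match of Bnip3 is the E-box form, and that of P4ha1 reads ACGTG on the other strand.

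Feedback inhibitors of MAP kinases were among the higher members. Of 16 measured MAP kinase phosphatases and Sprouty-type inhibitors 8 were higher (50% against 2.37% of all genes) and none was lower. The pathway induces these genes, which then damp it. Dusp6, the phosphatase of ERK, had signals of 374.4 in the control, 2348 and 2718 in the cocultures and 1419 in conditioned medium. Spred2, an inhibitor of RAF activation, had 151.7, 930.8, 768.5 and 339.4. Dusp1, a nuclear MAP kinase phosphatase, had 1165, 5886, 6309 and 1456, so conditioned medium was near the control. The transcription factor gene Etv5, a target of ERK signalling, had 77.8, 769.0, 737.5 and 177.1. Its other probe sets, 2 of them, gave log2 ratios between 2.59 and 2.83 in the cocultures. Phlda1 had 102.7, 874.1, 1130 and 153.5. Hbegf, a ligand of the epidermal growth factor receptor, had 70.5, 385.8 and 320.7 in control and cocultures and was under the floor, at 41.6, in conditioned medium.

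Immediate early genes, which respond to stimulation without new protein synthesis, had 14 of 31 measured genes higher (45.2% against 2.37% of all genes) and none lower. The median log2 ratios of the list were 0.86 and 1.01 in the live and irradiated cocultures and 0.04 in conditioned medium. Fosb, an AP-1 subunit, had 259.8, 1544, 1826 and 267.1 in control, live coculture, irradiated coculture and conditioned medium. Myc had 101.6, 536.0, 437.7 and 86.2. Id1, an inhibitor of helix-loop-helix factors, had 94.7, 645.9, 791.0 and 177.4. The nuclear receptor genes Nr4a1 and Nr4a2 were higher in the live coculture than in the irradiated one. Nr4a1 had 166.7, 1436, 678.0 and 204.5, and Nr4a2 had 61.9, 378.5, 212.9 and 60.7.

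Of the suppressive and regulatory list, 3 of 24 measured genes were higher (12.5% against 2.37% of all genes): Arg1, Ptgs2 and Nt5e. From the same list 1 gene, S100a9, was lower (4.17% against 1.51%). Arg1, arginase, had signals of 427.2 in the control, 8117 and 8843 in the cocultures and 5847 in conditioned medium, so the medium array stood near the cocultures. Ptgs2, the inducible cyclooxygenase, had 82.2, 1055, 1038 and 304.6, and Pla2g4a, the phospholipase that releases its substrate and the gene next to it, was also a member. Nt5e, the ectonucleotidase that forms adenosine, was under the floor at 34.7 in the control and had 320.1, 458.9 and 76.5. Of the SOCS family, which curbs cytokine receptor signalling, Socs3 and Socs2 were higher, 2 of 8 measured (25% against 2.37% of all genes). Socs3 had 399.9, 953.9, 1486 and 705.7, and its other 2 probe sets had log2 ratios of 0.69 and 1.10 in the live coculture and 1.46 and 1.80 in the irradiated coculture. Of the 4 other probe sets of Socs2 above the floor, 1 reached 2-fold on both cocultures.

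Of 17 measured TREM receptors and C-type lectins, 4 were higher (23.5% against 2.37% of all genes) and 2 lower (11.8% against 1.51%), and the list had median log2 ratios of 0.00 and 0.09 in the live and irradiated cocultures. Trem1, an activating receptor that amplifies inflammation, had 92.8, 1259.9, 1262 and 100.2 in control, live coculture, irradiated coculture and conditioned medium. The medium array resembled the control, and the second probe set of Trem1 gave log2 ratios of 3.88 and 3.74 in the cocultures. Its neighbour Trem3 was under the floor at 42.4 in the control and had 236.4, 225.3 and 106.2. Clec5a, a lectin receptor, had 256.4, 1138, 721.0 and 441.7. Against these, Trem2, a lipid-sensing receptor of macrophages, was lower with 2860, 1180.5, 1208 and 1825, although its other probe set had log2 ratios of -0.28 and 0.30. Clec4a3, an inhibitory lectin receptor, was lower with 1426, 306.5, 333.4 and 873.8.

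Of 21 Toll-like receptors and adaptors 3 were higher (14.3% against 2.37% of all genes) and 1 was lower (4.76% against 1.51%). The higher ones were Traf6 and the lipopolysaccharide receptor genes Cd14 and Tlr4. Cd14 had 2258, 5615, 7823 and 2311 in control, live coculture, irradiated coculture and conditioned medium, and Tlr4 had 421.6, 947.4, 980.4 and 613.5. Cd180, a relative of Tlr4 that restrains its signalling in dendritic cells, was lower with 574.9, 185.1, 143.5 and 301.1. The receptors C5ar1, for complement C5a, Itgam, the CD11b integrin, and Fcgr4, an IgG receptor, were higher as 3 of 17 measured (17.6% against 2.37%). Itgam had 1038, 2846, 3675 and 2741, so the medium array was near the live coculture. The chemokine receptor Cxcr4 was lower, with 1801, 597.7, 488.6 and 1043, while Ackr3, which binds the same ligand, was under the floor at 12.6 and 10.3 without tumour cells and had 325.4 and 657.8 in the cocultures.

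**Figure D3:**
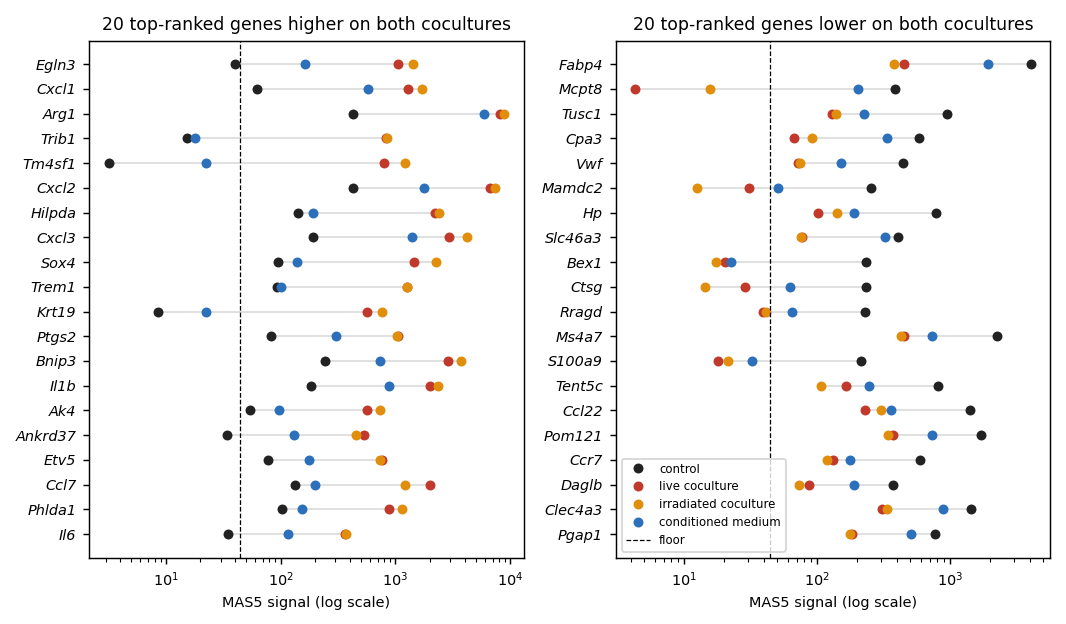
MAS5 signal on a log axis for the 20 top-ranked higher genes (left) and 20 top-ranked lower genes (right), 1 point per array, with the floor dashed. The coculture arrays lie together at one end and the control at the other, and the position of conditioned medium varies from near the control (Trem1, Trib1) to near the cocultures (Arg1, Bex1).

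Several top-ranked genes were under the floor on both arrays without tumour cells. Krt19, a keratin, had signals of 8.6 in the control, 569.7 and 767.4 in the cocultures and 22.2 in conditioned medium. Tm4sf1, a tetraspan membrane protein, had 3.2, 788.6, 1212 and 22.2, while another probe set of it had log2 ratios of 0.28 and 0.00. Trib1, a pseudokinase that directs protein degradation, had 15.2, 831.5, 847.2 and 17.8, with a second probe set at 0.14 and 0.32. Wt1, a transcription factor of mesothelium and ovarian surface epithelium, had 5.3, 174.3, 218.6 and 17.0. Sox4, a transcription factor of progenitor and epithelial cells, was above the floor everywhere with 95, 1452, 2275 and 137.9. For each of these the cocultures stood far above the control and conditioned medium stood within 2-fold of it after flooring. Of 28 measured genes on the wider epithelial and mesothelial list, 8 were higher (28.6% against 2.37% of all genes). They were Krt19, Krt18, Krt8, Cdh1, Upk3b, Wt1, Tjp1 and Ezr. With the floor at the 75th percentile of signals, 155.6, the count was 4. Of 36 matrix and fibroblast genes 10 were higher (27.8% against 2.37%), and the count was 2 with that higher floor. Among the 10 were the neighbours Col4a1 and Col4a2 of basement membrane collagen and Thbs1. Of the 9 fixed fibroblast markers, 3 exceeded the floor in the control, 5 and 4 in the live and irradiated cocultures and 5 in conditioned medium, with summed signals of 414.8, 730.5, 866.6 and 412.7. The proteoglycan gene Dcn (87.6, 201.7, 324.7 and 78.2) and the matrix protein gene Sparc (49.0, 224.6, 319.6 and 58.1) were higher members, and Col1a2 was above the floor on every array at 82.0 to 105.2. Col1a1 exceeded the floor on the coculture arrays only, at 58.8 and 54.4. The part of fibroblast-type RNA in the members was not tested.

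Lipid handling genes were among the lower members. Of 22 measured lipid handling genes 5 were lower (22.7% against 1.51% of all genes, or 2.25% of genes above the floor) and none was higher, though 1 was after quantile normalization or with the mean over probe sets. Fabp4, a fatty acid binding protein, had signals of 4012 in the control, 448.8 and 377.2 in the cocultures and 1909 in conditioned medium. Its other 3 probe sets had log2 ratios from -3.27 to -1.61. Lpl, lipoprotein lipase, had 7952, 2867, 1827 and 6674, and Lipa, the lysosomal acid lipase, had 6356, 2622, 2104 and 4239. Mgll, which breaks down monoglycerides, had 1016, 239.4, 351.2 and 280.1. For Lpl the medium array was near the control and for Mgll near the cocultures. Cd5l, a protein secreted by macrophages, had 247.2, 75, 51.7 and 553.4, so conditioned medium was on the other side of the control.

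Sterol synthesis genes also contributed lower members. These were Hmgcs1, Cyp51, Idi1 and Fdps, enzymes of the mevalonate and cholesterol pathway. They are 4 of the 26 measured genes of sterol and fatty acid synthesis (15.4% against 1.51% of all genes). Hmgcs1 had 1101, 380.7, 372.1 and 493.0 in control, live coculture, irradiated coculture and conditioned medium. With the mean over all probe sets 1 gene of the list was 2-fold lower, and none was 3-fold lower. From the same list Scd2, a fatty acid desaturase, was higher with 633.5, 2399, 2548 and 1861, and Me1, malic enzyme, which supplies NADPH, with 55.2, 262.5, 242.1 and 71.1. These higher genes are 7.69% of the list, against 2.37% of all genes.

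Dendritic cell maturation genes had members in both directions, and MHC class II genes had lower members. For MHC class II, Ciita and H2-Eb1 were lower, 2 of 14 measured (14.3% against 1.51% of all genes), and none was higher. Ciita, the transactivator of the class II genes, had 178.4, 48.5, 64.9 and 176.7 in control, live coculture, irradiated coculture and conditioned medium, and H2-Eb1 had 4244, 1347.5, 1653 and 3528. In both, conditioned medium was within 1.5-fold of the control. H2-Ab1 missed the rule, with 2813, 1382 and 1444. Of 23 maturation and migration genes 6 were lower (26.1% against 1.51% of all genes) and 4 higher (17.4% against 2.37%). The lower ones were Ccl22, Il12b, Cd200, the lymph node homing receptor Ccr7 (596.4, 131.6, 117.5 and 175.7) and, from NF-kappaB signalling, Relb and Traf1. The higher ones were Tnfsf9, Marcksl1, Socs2 and Cd80, which encodes the surface protein used for sorting. Cd80 had 85.5, 378.2, 325.8 and 201.3. No ribosomal protein gene of 15 measured, no unfolded protein response gene of 20 and no mitosis gene of 29 was a member. With 2.37% and 1.51% of all genes called, lists this short can hold none, so nothing is read from these counts. Median log2 ratios in the live and irradiated cocultures were -0.27 and -0.12 for ribosomal proteins and -0.45 and -0.39 for the unfolded protein response. For mitosis they were 0.75 and 0.37, with 0.79 in conditioned medium. A type I interferon response gene, Rsad2, was lower, 1 of 39 measured (2.56%), which is near the share of all genes, and its other probe sets had log2 ratios of -0.22 and -1.02 in the live and -0.18 and -0.39 in the irradiated coculture, so neither was 2-fold lower on both.

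**Figure D4:**
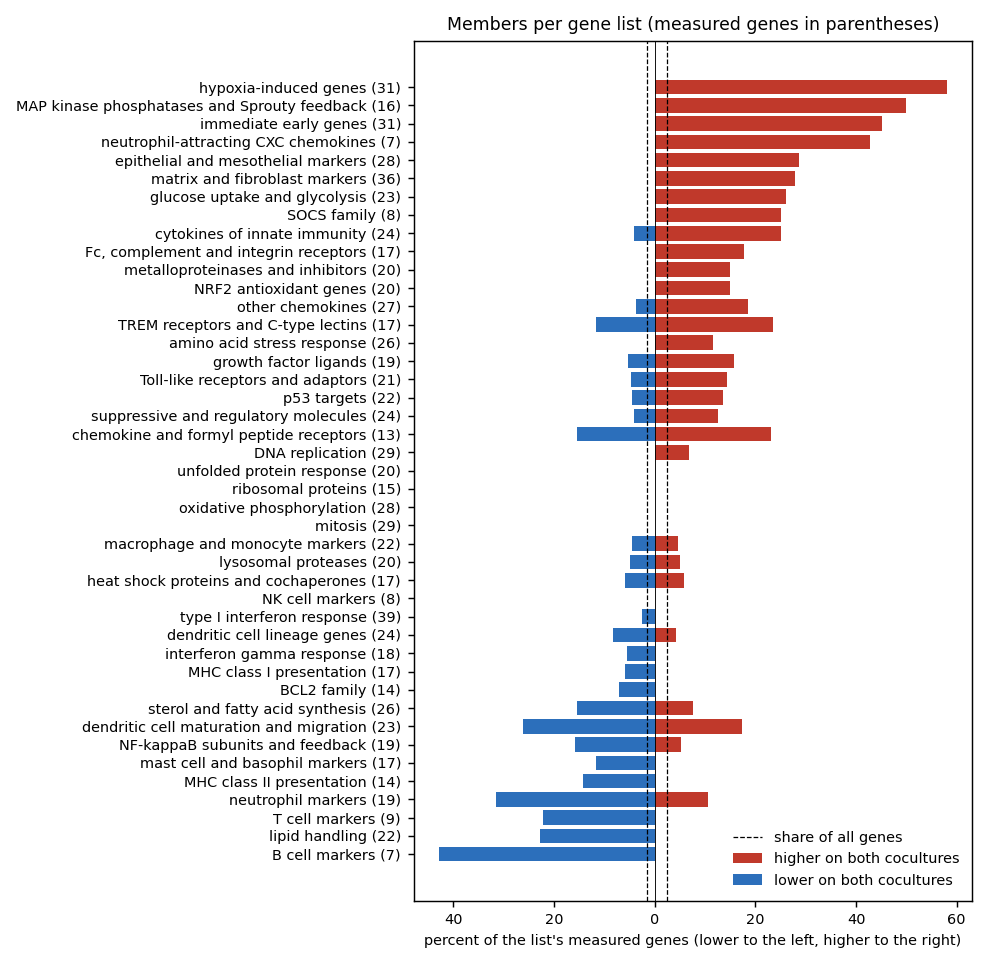
Percent of the measured genes of each list that were at least 2-fold higher (right, red) or lower (left, blue) on both cocultures, with the share of all genes, 2.37% and 1.51%, dashed and the number of measured genes in parentheses. Hypoxia-induced genes lie furthest to the right, and B cell and neutrophil markers hold the largest lower shares.

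Bone marrow cultures in GM-CSF can hold granulocytes, and some of their markers were lower. Of 19 measured neutrophil markers 6 were lower (31.6% against 1.51% of all genes) and 2, Mmp9 and Padi4, were higher (10.5% against 2.37%). The elastase gene Elane had 158.8 in the control, 27.0 and 30.2 in the cocultures, both under the floor, and 128.5 in conditioned medium. Its relative Ctsg, cathepsin G, had 232.8, 28.4, 14.3 and 62.0, and S100a9, a calgranulin subunit, had 214.3, 17.8, 21.4 and 32.5. Its partner S100a8 was within 2-fold of the control, with 963.6, 557.2 and 757.1. Prtn3, another granule protease gene, was above the control on both cocultures, with 183.2, 213.5, 294.6 and 243.1. Mpo had 114.4, 59.7, 49.6 and 94.4 and was not a member. Of 17 mast cell and basophil markers, Mcpt8 and Cpa3 were lower (11.8% against 1.51%) and none was higher. Mcpt8, a basophil protease next to Ctsg in the genome, had 385.6, 4.3, 15.5 and 201.0, and Cpa3, mast cell carboxypeptidase, had 582.6, 66.7, 90.5 and 336.6. The summed signal of the 7 measured mast cell or basophil markers of the fixed list was 1407 in the control, 293.5 and 378.2 in the cocultures and 831.8 in conditioned medium. Mcpt8 and Cpa3, which the rule chose, make up most of the control sum, so the sum largely repeats their values. None of the others was a member. Kit had 98.5, 71.3, 101.1 and 33.0, and Gata2 had 191.5, 118.7, 99.7 and 152.4. Fcer1a and Ms4a2, at 65.6 and 76.4 in the control, were under the floor in the cocultures, and Mcpt4 was under it everywhere. The part of these cells in the lower members was not tested.

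On the conditioned medium array, which did not enter the 2-fold rule, the higher members had a median log2 ratio to control of 0.67 (quartiles 0.25 and 1.16), beside 1.51 and 1.61 in the live and irradiated cocultures. Their median signal was 91.5 in the control, 327.1 and 330.9 in the cocultures and 164.6 in conditioned medium. For the lower members the median log2 ratio was -0.89 (quartiles -1.17 and -0.56) in conditioned medium, beside -1.32 and -1.38. All of these comparisons share the control array, so they are set side by side only. In conditioned medium 2.3% of all genes were at least 2-fold higher than the control and 1.41% lower.

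**Figure D5:**
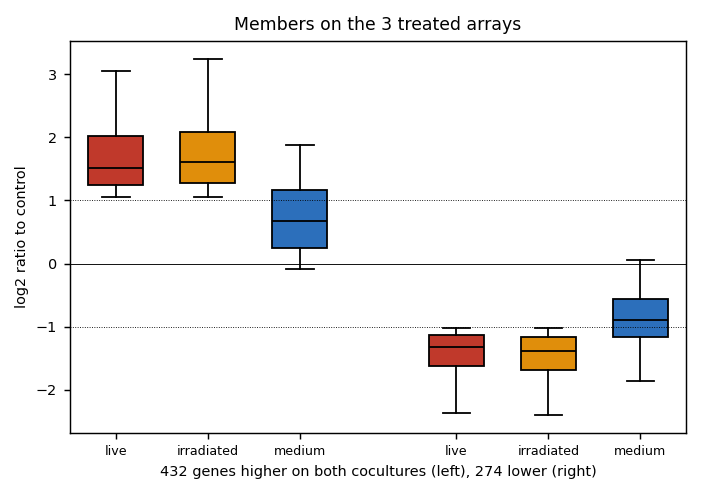
Log2 ratio to control of the 432 higher and 274 lower members on each treated array, with boxes from the lower to the upper quartile, a line at the median, whiskers at the 5th and 95th percentiles and dotted lines at 2-fold. The coculture boxes lie past 2-fold because of the rule, and the conditioned medium medians of 0.67 and -0.89 lie on the same side of 0 and inside 2-fold.

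Other lower members included macrophage, SLAM family and B cell genes. Ms4a7, a macrophage membrane protein, had 2237, 446.3, 426.0 and 733.2 in control, live coculture, irradiated coculture and conditioned medium, and another probe set of it had log2 ratios of -0.77 on both cocultures. Vwf, von Willebrand factor, had 438.5, 71.7, 74.7 and 150.6. Tusc1 had 942.0, 128.2, 137.3 and 225.7, and Hp, from the neutrophil list, had 782.6, 100.5, 140.8 and 189.9. Further top-ranked lower members were Mamdc2, Slc46a3, Bex1, Tent5c, Pom121, Daglb and Pgap1. Another probe set of Pom121 had log2 ratios of 0.19 and -0.27 in the live and irradiated cocultures. Of 9 measured genes of the SLAM family of leukocyte receptors, counted after their values were seen, 4 were lower: Cd48, Ly9, Slamf7 and Slamf8. Of all genes 1.51% were lower. Ly9 had 505.4, 111.0, 135.0 and 262.3. Of 7 measured B cell markers 3 were lower, Blnk, Cd22 and Cd79b, which at 42.9% against 1.51% was the largest lower share of the 43 lists. Blnk, an adaptor of the B cell receptor that myeloid cells also use, had 962.2, 313.5, 209.8 and 413.8. Cd79b had 89.8, 25.2, 28.6 and 73.5, under the floor in both cocultures, so its ratios are at least 2.03-fold. Another probe set of Cd22 had log2 ratios of -0.91 and -1.02 and so missed the rule. Of the 4 measured fixed B cell markers only Cd79b was a member, and Pax5 had 63.4, 52.5, 64.0 and 38.3. Of 9 T cell markers Il7r and Cd28 were lower (22.2% against 1.51%), and no NK cell marker of 8 was a member. Il7r, the interleukin 7 receptor, had 3916, 1427, 1374 and 1288. Of the 4 fixed T cell markers, Cd3d and Cd3g were under the floor on every array, Cd3e exceeded it in the irradiated coculture only, at 58.0, and Cd8a ranged from 114.5 to 125.9, and none of the 4 was a member.

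Some further lists had members, given here beside 2.37% of all genes higher and 1.51% lower. Of 26 genes of the amino acid stress response 3 were higher (11.5%), Sesn2, Slc7a11 and Eif4ebp1. Of 20 NRF2 antioxidant genes 3 were higher (15%), Me1, Gsr and Slc7a11. Of 22 p53 targets Sesn2, Plk3 and Cdkn1a were higher (13.6%) and Sesn1 was lower (4.55%). Of 19 genes of NF-kappaB subunits and feedback 1, Nfkbiz, was higher (5.26%) and 3 were lower (15.8%). Lig1 and Cdc6 were the higher genes among 29 of DNA replication (6.90%), and Bcl2l11 the lower gene among 14 of the BCL2 family (7.14%). No other Bcl2l11 probe set above the floor was 2-fold lower on both cocultures. Their log2 ratios ran from -1.06 to 0.79 in the live and from -0.72 to 0.29 in the irradiated coculture.

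Differences between the cocultures of 2-fold or more were seen in 9 members. In 6 of them, all higher members, the irradiated coculture had the larger signal. Ddit4, an inhibitor of the growth kinase mTOR, had 105.5 in the control and 432.2 and 1063 in the live and irradiated cocultures, and Arrdc3, an arrestin-like protein, had 183.5, 397.7 and 883.9. The others were Slc25a15, Ttc39b, Gsta4 and Ackr3. Nr4a1 and Egr3, both immediate early genes, had the larger signal in the live coculture, as had the lower member Mcoln3. Among all higher members 263 were above the live coculture in the irradiated one and 169 below it, with a median log2 ratio between them of 0.09.

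Other probe sets of the same gene read other parts of the transcript and did not enter the rule. Another probe set above the floor was present for 215 of the higher members, 398 probe sets in all. Of these 179 (45.0%) were at least 2-fold higher on both cocultures, 323 were above the control on both and 22 were below it on both. For 117 lower members there were 172 such probe sets, of which 48 (27.9%) were at least 2-fold lower, 122 were below the control and 24 above it on both. Among all 9214 such probe sets of any gene, members included, 7.27% were 2-fold higher and 1.87% 2-fold lower on both cocultures. E2f5 and Lhfpl2, 2 lower members, had another probe set that was 2-fold higher, and no direction is given for them. Probe sets of a gene share the RNA sample, so they bear on the measurement and not on the condition.

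Some members were neighbours in the genome, by the order of RefSeq genes on GRCm38.p6. Of the 432 higher members 50 (11.6%) had a higher member as the next measured gene on either side, which was so for 4.49% of genes that were not higher members. Of the lower members 23 (8.39%) had a lower neighbour, against 2.90% of the other genes. Neighbours on the higher side included Cxcl1 and Cxcl2, Ccl2 and Ccl7, Il1a and Il1b, Osm and Lif, Trem1 and Trem3, Krt8 and Krt18, Pla2g4a and Ptgs2, and Col4a1 and Col4a2. On the lower side they included Ly9, Slamf7 and Cd48 of the SLAM receptor family, Mcpt8 and Ctsg, and Mcoln2 and Mcoln3. Many of these are paralogs, whose probes can share sequence.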

How the data were processed

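RNA of 4 sorted BMDC samples was measured on Affymetrix mouse arrays of 45101 probe sets, 1 array per condition. The deposited values are probe set intensity on a linear scale, for which the submitters' processing notes name GCOS 1.4 and MAS5. The scaling target is not given in the sources used here. A mean trimmed by 2% at each end came to 150.0 on every array, so no further normalization was applied. The arrays were not alike in every respect. The median signal was 38.7 in the control, 46.8 and 45.3 in the live and irradiated cocultures and 46.6 in conditioned medium. In the same order 58.8%, 62.5%, 62.0% and 61.8% of genes exceeded the floor. The part of this difference in the ratios of dim genes was not tested. Control probe sets (64) were left out. Gene names came from the platform annotation for 34945 probe sets with 1 gene, and 34741 were matched to RefSeq genes of GRCm38.p6 by Entrez identifier; 932 probe sets with several genes and 9160 not listed were left out. A gene with several probe sets took the brightest, by average log2 intensity. Signals were set to at least the floor before log2 ratios to control were taken, so ratios of dim genes are bounds. MAS5 subtracts mismatch signal, which makes dim values noisy. With no replicates there is no test or p-value, and precision is limited by having 4 arrays. No paired analysis was possible because each condition has 1 sample.

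The members, the 43 gene lists and the alternatives were chosen with earlier results of these data known. A rule marked genes to be named. They were the 20 top-ranked members in each direction (clone-like symbols skipped) and the 3 nearest each side of the threshold. Up to 6 members of each list and genes of opposite direction were marked too. The text does not name every list gene so marked. Any other gene was chosen after its values were seen. Promoter motifs were searched in 250 bases before each RefSeq transcript start on both strands; a gene counts if any of its starts has a match. The calling steps were checked on simulated data. Python 3.11.15, numpy 2.4.6 and pandas 2.3.3 were used.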

Additional observations from a re-analysis of the deposited data

Results flagged for a closer look

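Rasgef1b was at least 2-fold from the control in opposite directions on the coculture arrays. The control array read 165.1, the live coculture 430.3, the irradiated coculture 81.6 and conditioned medium 123.4, so the log2 ratio of irradiated to live coculture was -2.40. The gene has 1 probe set, and with 1 array per condition the difference was not tested.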

How the results depend on the processing

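The floor and the probe set rule set how many genes were members. With the floor at the 25th percentile (12.9) there were 870 higher, 435 lower and 7 opposite genes, and at the 75th percentile (155.6) 208, 174 and 0. A 3-fold threshold gave 154, 61 and 0. The mean over all probe sets gave 346 higher genes, of which 293 were members as reported, and 175 lower genes, of which 167 were. Quantile normalization gave 365 and 302, sharing 350 and 241 with the members as reported, and median centring 370 and 349, sharing 369 and 274. The higher share of the members was 61.2% as reported, 54.7% after quantile normalization and 51.5% after centring, which moved the median of log2 ratios, over genes above the floor on all arrays, from -0.04 to -0.17 in the live and from -0.05 to -0.12 in the irradiated coculture. No named gene past 2-fold changed sign on either coculture under the 5 alternatives run for ratios. A change of floor alters the size of a ratio but cannot reverse it, so the floor settings could not have shown a change of sign. Of the 328 ratios of named genes, 157 were classed as moved with the floor at the 75th percentile and 44 at the 25th. With the mean over all probe sets 111 were, and after quantile normalization or median centring all 328 were classed as the same. The hypoxia list had 15 to 18 higher genes under the 6 alternatives. Signal near the floor limits all counts: 88 higher and 52 lower members rest on a bound.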

Other observations

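Lower members included genes of lysosomal acidification and nutrient sensing, families looked at after the values were seen and counted here in full. Of 23 measured subunits and accessory proteins of the V-ATPase, the proton pump of lysosomes, 19 were above the floor on the control or a coculture array, and 16 of the 19 were below the control on both cocultures with none above it on both. Their median log2 ratio was -0.72 in the live and -0.59 in the irradiated coculture. Of the 23, 3 were lower members, where 1.51% of all genes were. Atp6v1b2 had signals of 4795 in the control, 2184.5 and 1999.6 in the cocultures and 3501 in conditioned medium, and Tcirg1 had 2360.0, 1078, 1158 and 1373. The third was Atp6v1c1. No other probe set of Atp6v1b2 or Atp6v1c1 above the floor was 2-fold lower on both cocultures. For Atp6v1b2 they had log2 ratios of -0.87 and 0.00 in the live and -0.94 and 0.14 in the irradiated coculture. For Atp6v1c1 they had -0.57 and -0.93, and -0.74 and -1.06. Over all genes above the floor on these arrays, 41.0% were below the control on both cocultures. Both Mcoln2 and Mcoln3, lysosomal cation channels, were lower, and Mcoln1 was below the control but short of 2-fold. Another probe set of Mcoln3 had log2 ratios of -0.62 and -1.43 in the live and irradiated cocultures. Of 11 Rag, Ragulator and folliculin complex genes, which relay nutrient state to mTOR, Rragd and Fnip2 were lower. Fnip2 had 2607, 826.5, 832.1 and 1385 in the same order, and Rragd had 227.1, 39.0, 41.2 and 64.7. Tfeb, a transcription factor that drives lysosomal genes, had 639.9, 276.2, 315.5 and 395.1. It belongs to the lysosomal protease list, set before these families were looked at, with 20 genes measured. On that list only Tfeb was lower and only the cathepsin gene Ctse was higher (5% each). The median log2 ratios of the list were -0.36 and -0.15 in the live and irradiated cocultures.

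Genes of the aryl hydrocarbon receptor, a sensor of small aromatic molecules, were divided: of 7 measured, a battery counted after the values were seen, 3 were higher and 1 lower. Of all genes 2.37% were higher and 1.51% lower. Ahr itself had signals of 110.0 in the control, 818.8 and 1197 in the cocultures and 230.1 in conditioned medium. Its targets Cyp1b1 and Tiparp were higher too, Cyp1b1 with 49.0, 259.2, 314.5 and 96.1. The other probe sets of Cyp1b1 did not reach 2-fold on both cocultures, with log2 ratios of 0.86 and 1.23 for one and 0.08 and 0.00 for the other, while those of Ahr and Tiparp above the floor did. Its repressor Ahrr, usually counted among its targets, was lower with 217.4, 43.2, 56.8 and 328.4.

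In 3 members conditioned medium lay at least 2-fold from the control in the direction opposite to the cocultures. Dusp5, an ERK phosphatase, had signals of 303.2 in the control, 788.9 and 702.5 in the cocultures and 144.8 in conditioned medium. Plk3, a stress kinase, had 92.5, 221.0, 197.2 and 43.9, the last under the floor. Cd5l was the third, and the reverse of these.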
